A study of Mus musculus with 23 samples.

Results

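The secreted Wnt signals of bone, the receptors that read them, and the antagonists that limit them were described in marrow-depleted femur and tibia of female mice with or without type 1 diabetes (T1D) and with or without a global knockout of Sarm1. The members were taken by name: Wnt, Fzd, Sfrp, Dkk, and Rspo genes, with Lrp4, Lrp5, Lrp6, Lgr4, Lgr5, Lgr6, Wif1, Axin2, and Notum. Of the 17644 genes in the TPM table, 48 met this rule, and all 48 were matched to the 67228 entries of the count table. Of these, 37 had at least 10 counts in at least 5 mice and were tested, and the other 11 were not. The 4 groups held 23 C57BL6/N females killed at 11 weeks of age: 5 wild type mice without diabetes (WT Control), 6 wild type mice with T1D (WT T1D), and 6 mice each without (KO Control) and with T1D (KO T1D) whose label gave a Sarm1-KO genotype. T1D mice had been injected with 100 mg/kg of the β cell toxin streptozotocin on each dosing day and had been diabetic for 3 weeks, whereas Control mice received saline. Each library came from the femur and tibia of 1 mouse, with the epiphyses removed and the marrow spun out. The knockout is present in every cell of the body, so the design does not separate bone from other tissues. Per the study's methods, WT mice were partly littermates and partly purchased, and which were used here is not given in the sources used here.

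Wnt proteins bind a Frizzled receptor together with Lrp5 or Lrp6 and thereby stabilize β-catenin, which acts with TCF/LEF factors on target genes such as Axin2. In bone, this pathway drives osteoblast differentiation and restrains bone resorption. R-spondins amplify it through Lgr4, Lgr5, and Lgr6. It is limited outside the cell by proteins that capture Wnt (the Sfrp family and Wif1), that block the co-receptor (Dkk1), or that remove the lipid from Wnt (Notum). Lrp4 anchors sclerostin, the osteocyte inhibitor of Lrp5 and Lrp6.

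With T1D in WT mice, Dkk1, Fzd8, and Lgr4 were lower at an adjusted p under 0.05, and 0 members were higher. These 3 are an inhibitor, a receptor, and an R-spondin receptor. In mice labelled Sarm1-KO, 0 members passed this threshold with T1D. The interaction of genotype and diabetes passed the threshold for 0 members. The 3 calls in WT were lost without WT T1D mice A3905 and A3906, whose libraries stood apart from the rest, as described next. They were also lost without any 1 of the WT Control mice A3767, A3903, A3904, and A3907.

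Total counts per mouse ranged from 16938101 to 20135592. Expression is given as CPM (counts scaled to the TMM-normalized library size), and levels of different genes are compared only as TPM, which accounts for length. Osteoblast markers were abundant in every library, but their summed level was 8612 CPM in A3905 and 6866 CPM in A3906, against 62920 to 85840 CPM in the other WT T1D mice and 61140 to 119000 CPM in WT Control. Col1a1 and Col1a2 (up to 62370 and 40160 CPM) had the most weight in this sum, whereas Runx2 ran only from 40.25 to 109.1 CPM over all mice. With T1D in WT, 9 of the 10 osteoblast estimates were below 0, and Spp1 was at 0.66 on the log2 scale. The 11 chondrocyte markers summed to 252.5 and 276.4 CPM in A3905 and A3906, against 1644 to 2534 CPM in the other WT T1D mice. Conversely, the erythroid markers summed to 239400 and 234600 CPM in these mice, against 127500 to 180800 CPM in the other WT T1D mice and 98720 to 144500 CPM in WT Control. A3905 and A3906 also stood outside the other WT T1D mice for the adipocyte sum (452.8 and 481.8 against 208.5 to 237.1 CPM), the neutrophil sum (43880 and 40000 against 27490 to 28990 CPM), and the B cell sum (179.3 and 218.4 against 487.6 to 904.6 CPM). Their stromal niche sums (2413 and 2480 CPM) were above and their endothelial sums (220.6 and 212.4 CPM) below those of the other WT T1D mice, whereas their osteocyte sums (323.8 and 335.2 against 178.4 to 353.5 CPM) and skeletal muscle sums lay within that range. The osteocyte sum does not describe each marker. With T1D in WT, 3 of the 5 osteocyte estimates were below 0, from -0.99 for Phex to 2.13 for Fgf23 on the log2 scale. With T1D in WT, 2 of 10 osteoblast markers were called lower, 6 of 14 tested erythroid markers higher, and 1 of 6 tested adipocyte markers higher. For the chondrocyte, osteocyte, skeletal muscle, endothelial, neutrophil, B cell, and stromal niche lists, 0 genes were called at an adjusted p under 0.05. No listed marker present in the count table was at 0 in every mouse. An ID of the A17 series was carried by 3 WT T1D mice and 1 WT Control mouse, and the other 19 mice had IDs from A36 to A39. Every mouse with an A36 ID was labelled Sarm1-KO, and every mouse with an A17 or A39 ID was WT. Only A3766 (KO Control) and A3767 (WT Control) shared a series across genotypes. Genotype and ID series therefore cannot be told apart between KO T1D and WT T1D. Sarm1 RNA, at 5 to 32 counts per mouse, did not separate the genotypes. Its mean was lower in KO Control (0.799 CPM) than in WT Control (1.17 CPM) but higher in KO T1D (1.19 CPM) than in WT T1D (0.687 CPM). Other genes did separate them, in Control and in T1D: Ccdc92b was lower in mice labelled Sarm1-KO (log2 fold changes -3.40 and -3.75), and Xaf1 (3.22 and 3.46) and Vtn (3.35 and 3.40) were higher, with an adjusted p of at most 1.793e-06 from edgeR. Genotypes are taken from the labels.

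The promoters of Dkk1 and Lgr4 are shown because these members were called in WT T1D. Promoter activity was not tested. The promoter of Fzd8, which was also called, was not used here. The 250 bases before each start, from RefSeq on GRCm38.p6 in the direction of transcription, lie at chr19:30549497-30549746 (minus strand) for Dkk1 and at chr2:109917397-109917646 (plus strand) for Lgr4. Capitals mark the TCF/LEF letters CTTTGA or CTTTGT and the RUNX letters TGTGGT or TGCGGT, on either strand. No match of 1 motif overlapped the other.
Dkk1: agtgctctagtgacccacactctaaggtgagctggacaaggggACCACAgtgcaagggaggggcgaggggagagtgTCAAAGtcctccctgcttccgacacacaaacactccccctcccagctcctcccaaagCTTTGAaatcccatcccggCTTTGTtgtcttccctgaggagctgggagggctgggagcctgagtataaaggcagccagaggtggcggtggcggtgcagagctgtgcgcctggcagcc
Lgr4: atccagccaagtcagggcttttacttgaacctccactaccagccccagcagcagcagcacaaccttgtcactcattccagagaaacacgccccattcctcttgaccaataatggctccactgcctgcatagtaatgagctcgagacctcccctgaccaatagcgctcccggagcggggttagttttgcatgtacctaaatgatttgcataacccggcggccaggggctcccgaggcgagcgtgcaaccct
The Dkk1 window held 3 TCF/LEF matches, whose first bases lay 174, 117, and 98 bases before the start, and 1 RUNX match 207 bases before it. The Lgr4 window held 0 matches of either kind. Of 32851 mouse promoter windows of this length, 27.6% held at least 1 TCF/LEF match and 18.6% at least 1 RUNX match. Among the 33 windows of 30 members, 7 held TCF/LEF letters and 4 held RUNX letters.

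The levels of the 48 members spanned more than 4 orders of magnitude and were highest among the antagonists and co-receptors. Over all 23 mice, Wif1 had the highest mean (70.4 TPM), followed by Lrp5 (32.6 TPM), Sfrp4 (26.5 TPM), Lrp4 (14.0 TPM), and Dkk1 (10.3 TPM). These ranges overlapped between neighbours, for example 10.4 to 124 TPM for Wif1 and 13.3 to 48.8 TPM for Lrp5. Among the ligands, Wnt4 was highest (7.29 TPM), followed by Wnt5b (4.92 TPM), Wnt10b (1.96 TPM), Wnt16 (1.81 TPM), and Wnt5a (1.22 TPM). Fzd5 (5.93 TPM) and Fzd8 (5.39 TPM) led the Frizzled receptors. Rspo3 (3.14 TPM) led the R-spondins, and Lgr4 (4.44 TPM) their receptors.

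The 11 members that were not tested were Wnt2, Wnt2b, Wnt3, Wnt3a, Wnt6, Wnt8b, Wnt9b, Fzd10, Rspo4, Sfrp5, and Dkk4. None of them had more than 20 counts in any mouse. They were left out of the main fit, so it says nothing about changes in these genes. A filter of 1 count in 1 mouse let all 48 members be tested, and none of these 11 was called in any comparison. Among them are Wnt3a, a ligand often used to activate the pathway, and Sfrp5, a Wnt-binding antagonist of adipose tissue.

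**Figure D1:**
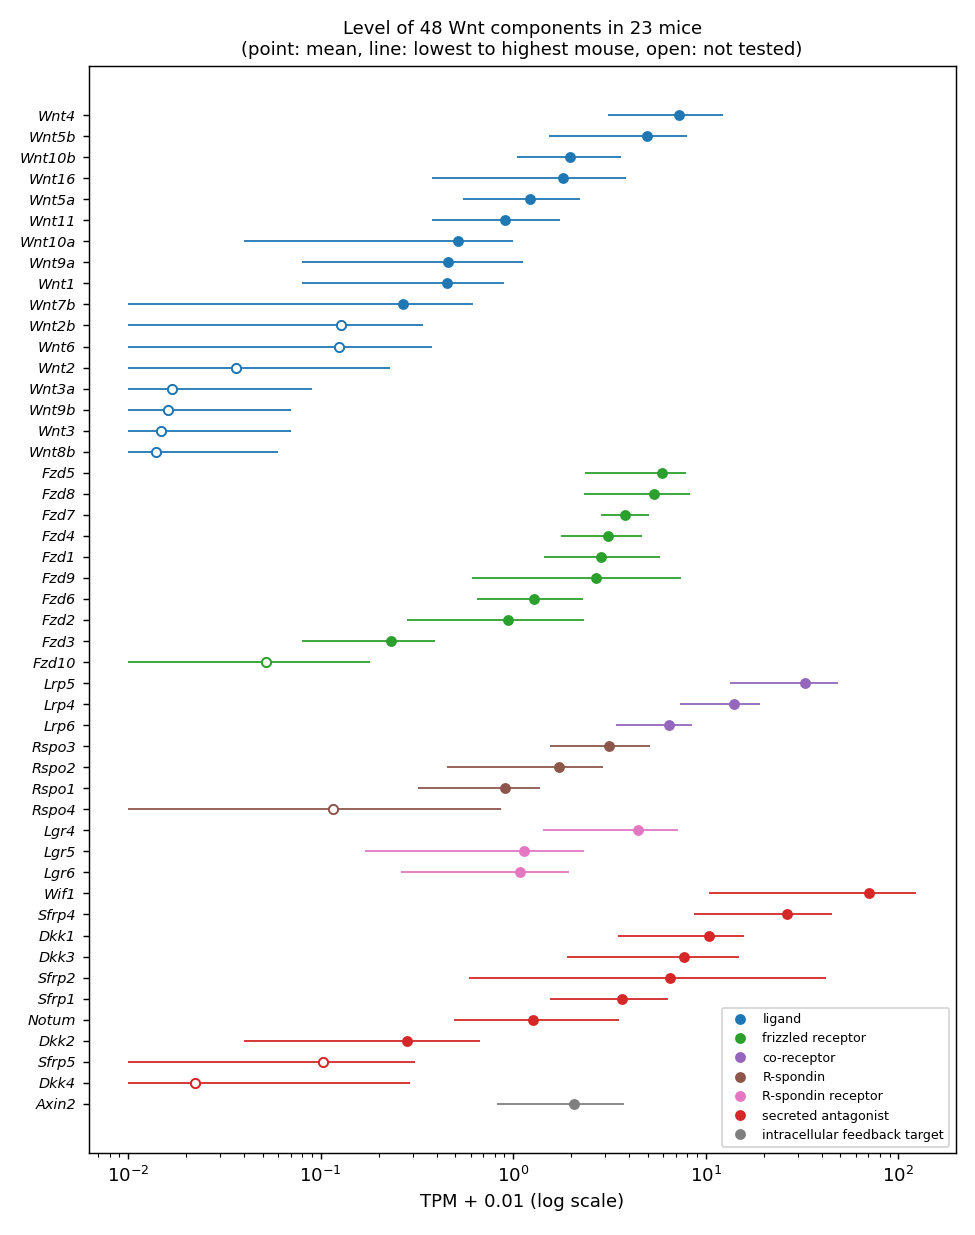
Level of each of the 48 Wnt components as TPM + 0.01 on a log scale, with the mean over 23 mice (point) and the lowest to highest mouse (line), coloured by role. The 11 untested members (open points) lie at the bottom of their roles, and Wif1 has the highest mean at 70.4 TPM.

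Among the 37 tested members, 28 had a log2 fold change below 0 with T1D in WT, and the median was -0.32, against a median of -0.01 over all 14364 genes tested. Without A3905 and A3906, the members' median was -0.06, with 21 of 37 below 0, and with the erythroid markers as a covariate it was 0.11. The 3 members called lower at an adjusted p under 0.05 made up 8.11% of those tested, whereas 0.828% of all genes were called lower. For higher calls, the count was 0 members against 1.5% of all genes. At an unadjusted p under 0.05, 12 members (32.4%) were lower, against 11.2% of all genes. Every WT T1D mouse lay below every WT Control mouse for 2 members, Dkk1 and Lgr4, and for 0.877% of all genes. In bulk RNA, fewer cells of a type and less RNA per cell cannot be told apart.

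**Figure D2:**
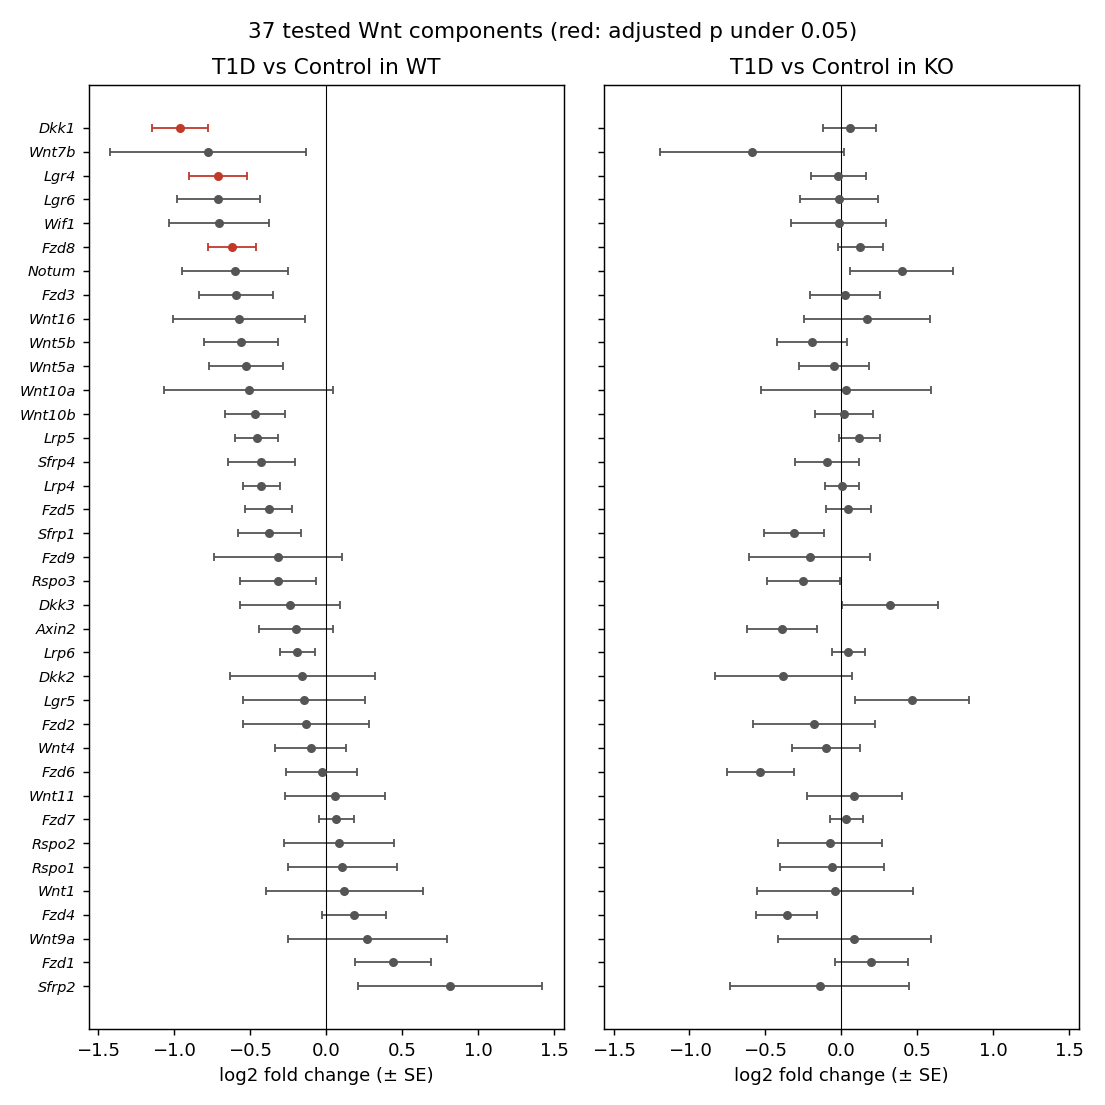
Log2 fold change with T1D (± SE) of the 37 tested members in WT mice (left) and in mice labelled Sarm1-KO (right), ordered by the change in WT. Dkk1, Lgr4, and Fzd8 are called in WT (red), 28 of 37 estimates lie below 0 there, and 0 members are called in mice labelled Sarm1-KO, where 20 of 37 lie below 0.

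Of the 17 ligands, 10 were tested with T1D in WT, and 0 passed the threshold (lowest adjusted p = 0.168 from edgeR). At an unadjusted p under 0.05, 3 did. These were Wnt5a and Wnt5b, which act mainly without β-catenin, and Wnt10b, which promotes osteoblast over adipocyte differentiation.

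Wnt10b was 3.72, 6.31, 5.93, 3.83, and 4.57 CPM in the WT Control mice and from 2.60 to 4.84 CPM (median 3.28) in WT T1D. The groups overlapped, although 4 of the 6 diabetic mice were under the lowest Control mouse. Its log2 fold change was -0.47 (SE 0.20, adjusted p = 0.168).

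Wnt5b was 6.24, 10.6, 8.42, 9.30, and 9.04 CPM in WT Control and from 3.11 to 9.29 CPM (median 6.33) in WT T1D. The lowest values, 3.11 and 3.30 CPM, came from A3905 and A3906, whereas A1764, at 9.29 CPM, exceeded 3 of the 5 WT Control mice. Its log2 fold change was -0.56 (SE 0.24, adjusted p = 0.174).

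Wnt5a was 3.18, 6.09, 6.27, 4.57, and 5.02 CPM in WT Control and from 2.38 to 4.50 CPM (median 3.57) in WT T1D. The groups overlapped because WT Control mouse A1757 was low. Its log2 fold change was -0.53 (SE 0.24, adjusted p = 0.197). Exons of Wnt5a overlap an antisense gene, and whether counting used strand is not given in the sources used here.

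Wnt4, the ligand with the highest level, was 11.2, 26.7, 10.3, 25.4, and 23.3 CPM in WT Control and from 10.9 to 21.5 CPM (median 20.4) in WT T1D. The spread within WT Control covered the whole WT T1D group. The log2 fold change was -0.10 (SE 0.23, adjusted p = 0.839). In KO Control, Wnt4 was 15.9 to 30.1 CPM (median 20.7), and in KO T1D, it was 15.9 to 23.8 CPM (median 20.9).

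The other 6 tested ligands, Wnt1, Wnt7b, Wnt9a, Wnt10a, Wnt11, and Wnt16, had log2 fold changes from -0.78 (Wnt7b, SE 0.64) to 0.27 (Wnt9a, SE 0.52). Their means stayed at or below 2.81 CPM in all groups.

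Fzd8 was the only Frizzled receptor called with T1D in WT, and 8 of the 9 tested were not called. Fzd8 was 12.2, 17.1, 15.9, 15.6, and 18.3 CPM in WT Control and from 7.11 to 14.2 CPM (median 10.7) in WT T1D. In KO Control, it was 10.3 to 15.3 CPM (median 12.1), and in KO T1D, it was 10.7 to 15.2 CPM (median 13.5). Within WT, all diabetic mice but 1 lay below every Control mouse, and the exception, A1764, exceeded WT Control mouse A1757. The log2 fold change was -0.62 (SE 0.16, adjusted p = 0.0451), or 0.650 of the Control level.

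Fzd5 and Fzd3 had an unadjusted p under 0.05 in WT. Fzd5, a receptor for canonical and noncanonical Wnts, was 31.7, 30.4, 31.4, 32.0, and 35.98 CPM in WT Control and from 15.0 to 33.0 CPM (median 25.8) in WT T1D. A3905 and A3906 were the low mice, at 17.2 and 15.0 CPM, and 2 other WT T1D mice were as high as WT Control. T1D gave a log2 fold change of -0.38 (SE 0.16, adjusted p = 0.154).

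Fzd3 is best known from axon guidance. It was 1.81, 3.18, 2.15, 2.31, and 2.04 CPM in WT Control and from 0.868 to 2.42 CPM (median 1.48) in WT T1D, where all mice except A1764 were under the WT Control range. Its estimate was -0.59 (SE 0.25, adjusted p = 0.156). Fzd1 had the highest estimate among the receptors, 0.44 (SE 0.25, adjusted p = 0.309), with 18.7 CPM in A1764 and 16.5 CPM in A3905 as the high values.

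All 3 co-receptors had estimates below 0 in WT T1D, and 0 were called. Lrp4 was 72.5, 99.9, 94.1, 91.7, and 89.6 CPM in WT Control and from 53.0 to 89.2 CPM (median 62.6) in WT T1D. The groups overlapped through A1757 on the Control side and A1758 and A3909 on the T1D side. The fitted change was -0.43 on the log2 scale (SE 0.12, adjusted p = 0.0524).

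Lrp5, whose loss lowers and whose activation raises bone mass in mice and people, was 113.8, 139.9, 126.7, 129.3, and 167.5 CPM in WT Control and from 65.7 to 126.6 CPM (median 110.3) in WT T1D. A3905 and A3906 were at 66.1 and 65.7 CPM, and 3 of the other 4 WT T1D mice lay between 110 and 112.1 CPM, just under the lowest WT Control mouse. Its log2 fold change was -0.46 (SE 0.14, adjusted p = 0.0715). Lrp6 gave -0.19 (SE 0.12, adjusted p = 0.334).

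Of the R-spondins, 0 of 3 tested were called, and 0 had an unadjusted p under 0.05. Rspo3, the highest of them, was 3.62, 6.36, 7.01, 8.17, and 7.27 CPM in WT Control and from 3.51 to 7.17 CPM (median 5.42) in WT T1D. It was 2.80 to 8.05 CPM (median 5.26) in KO Control and 2.91 to 5.42 CPM (median 4.77) in KO T1D. The 4 groups overlapped, and T1D in WT gave a log2 fold change of -0.32 (SE 0.25, adjusted p = 0.478).

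Lgr4, the R-spondin receptor with the highest level, also binds RANKL. It was 16.5, 15.96, 22.8, 17.1, and 21.1 CPM in WT Control and from 6.65 to 15.1 CPM (median 12.3) in WT T1D, so the groups did not overlap. The low end came from A3905 and A3906, at 7.08 and 6.65 CPM, and the other 4 WT T1D mice were between 11.1 and 15.1 CPM. The log2 fold change was -0.71 (SE 0.19, adjusted p = 0.0494), or 0.611 of the Control level. KO Control lay at 13.3 to 21.6 CPM (median 16.6) and KO T1D at 14.1 to 20.9 CPM (median 16.8).

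Lgr6, a marker of osteoprogenitors and other stem cells, was 3.56, 5.98, 6.16, 4.40, and 6.89 CPM in WT Control and from 1.64 to 6.11 CPM (median 3.03) in WT T1D. All WT T1D mice except A3909 lay below every WT Control mouse. The fitted log2 fold change was -0.71 (SE 0.27, adjusted p = 0.127).

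Dkk1 had the lowest p of all members. It was 16.2, 19.8, 18.8, 21.1, and 23.1 CPM in WT Control, whereas the 6 WT T1D mice were at 11.7 (A1764), 6.04 (A1787), 14.8 (A1758), 7.36 (A3905), 7.34 (A3906), and 13.7 CPM (A3909). The groups did not overlap, and here the lowest mouse was A1787 rather than A3905 or A3906. Dkk1 changed by a log2 fold of -0.96 (SE 0.19, adjusted p = 0.0236), or 0.513 of the Control level. Dkk1 lay at 14.7 to 20.4 CPM (median 16.98) in KO Control and at 14.3 to 21.9 CPM (median 17.7) in KO T1D.

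Wif1 had the highest mean TPM of the antagonists among the members. It was 89.2, 125.4, 122.6, 124.8, and 166.5 CPM in WT Control and from 21.1 to 117.4 CPM (median 97.5) in WT T1D. A3905 and A3906 had 26.3 and 21.1 CPM, and the other 4 WT T1D mice, at 93.4 to 117.4 CPM, lay within the WT Control range. A log2 fold change of -0.70 resulted (SE 0.33, adjusted p = 0.207). The remaining antagonists were not called. Their estimates ran from -0.60 for Notum (SE 0.35) to 0.81 for Sfrp2 (SE 0.61). The Sfrp2 estimate rested on A1764, at 59.0 CPM, since the other 5 WT T1D mice had at most 8.32 CPM.

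Axin2, a target and feedback inhibitor of β-catenin signalling, was 3.34, 4.28, 7.46, 5.98, and 7.16 CPM in WT Control and from 3.17 to 7.67 CPM (median 4.06) in WT T1D. The groups overlapped throughout, and the log2 fold change was -0.20 (SE 0.24, adjusted p = 0.674). It was 5.34 to 9.75 CPM (median 8.16) in KO Control and 4.37 to 7.19 CPM (median 5.70) in KO T1D (log2 fold change -0.39, SE 0.23, adjusted p = 1). Axin2 is 1 of 9 tested members with exons that overlap a gene on the opposite strand, beside Fzd5, Fzd6, Notum, Rspo3, Sfrp2, Wnt5a, Wnt7b, and Wnt11.

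**Figure D3:**
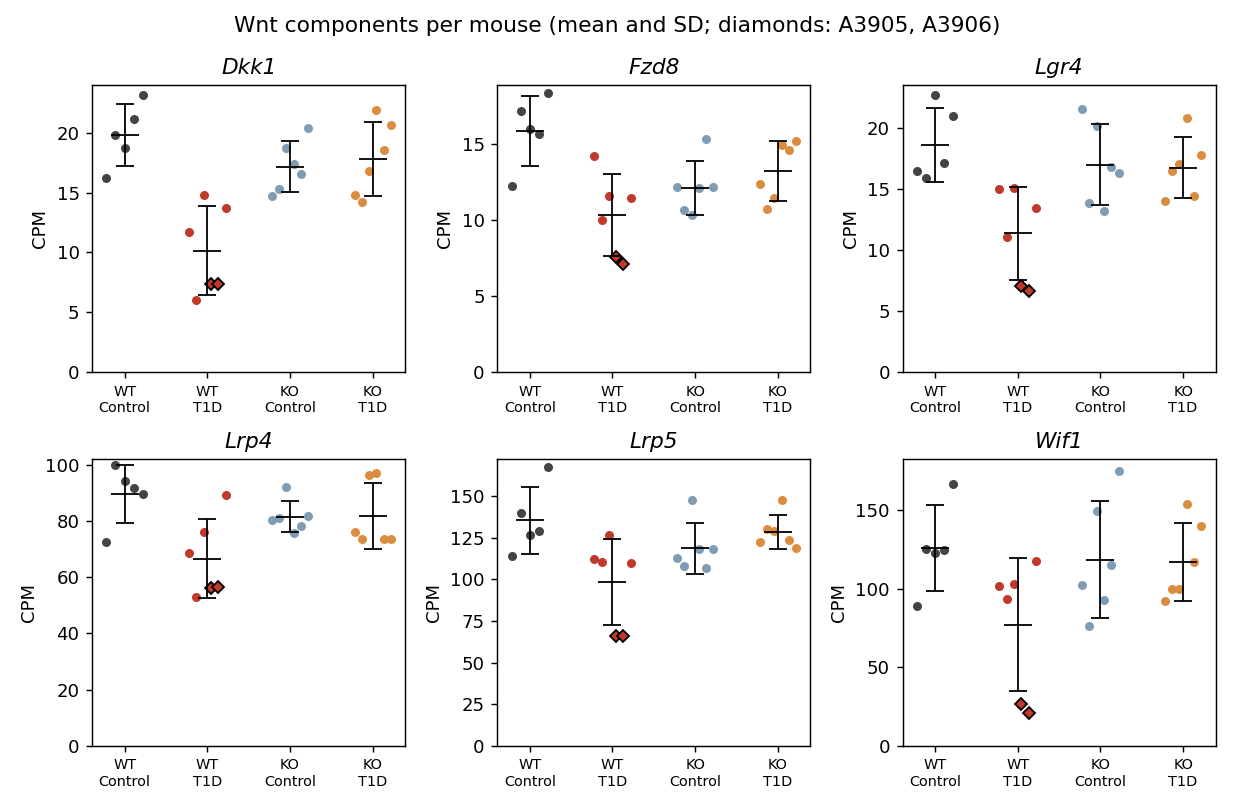
Expression (CPM after TMM) of Dkk1, Fzd8, Lgr4, Lrp4, Lrp5, and Wif1 in each mouse of the 4 groups, with the mean and SD, and diamonds for A3905 and A3906. For Dkk1 and Lgr4, all 6 WT T1D mice lie below all 5 WT Control mice, whereas the Control and T1D mice labelled Sarm1-KO overlap for all 6 genes.

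A3905 and A3906 had the 2 lowest values of WT T1D for 21 of the 37 tested members and the 2 lowest of all 23 mice for 15. Without both mice, edgeR called 0 members and 0 genes in WT, and 5 members had an unadjusted p under 0.05 and were lower, against 5.62% of all genes. The log2 fold change was -0.78 for Dkk1 (adjusted p = 0.177), -0.43 for Fzd8 (adjusted p = 0.309), and -0.45 for Lgr4 (adjusted p = 0.309). For Wif1, it was -0.28 (adjusted p = 0.649). Leaving out A3905 alone, A3906 alone, or any 1 of the WT Control mice A3767, A3903, A3904, and A3907 also gave 0 members called. Over all genes, these runs called from 0 genes (without A3767 or A3907) to 13 genes (without A3904). The adjusted p of Dkk1 in these runs reached at most 0.0803.

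With the erythroid markers as a covariate, 0 members and 0 genes were called in WT, and 15 of 37 member estimates were below 0. Dkk1 then changed by -0.64, Fzd8 by -0.39, and Lgr4 by -0.29 on the log2 scale (adjusted p = 0.9995 for each). The covariate, the mean log2 CPM of the erythroid markers, was 9.673 to 10.206 in WT Control and 10.173 to 10.952 in WT T1D. Because it nearly followed the groups, this fit cannot tell T1D and erythroid content apart. The 19 mice with A36 to A39 IDs, whose WT T1D group was A3905, A3906, and A3909, gave 12 members called lower (32.4%), where 15.5% of all genes were called in either direction. The A17 mice were all WT, with 1 Control mouse, so no comparison could be made within them. The part of the cell mixture of these libraries in the lower member values was not tested beyond these fits.

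**Figure D4:**
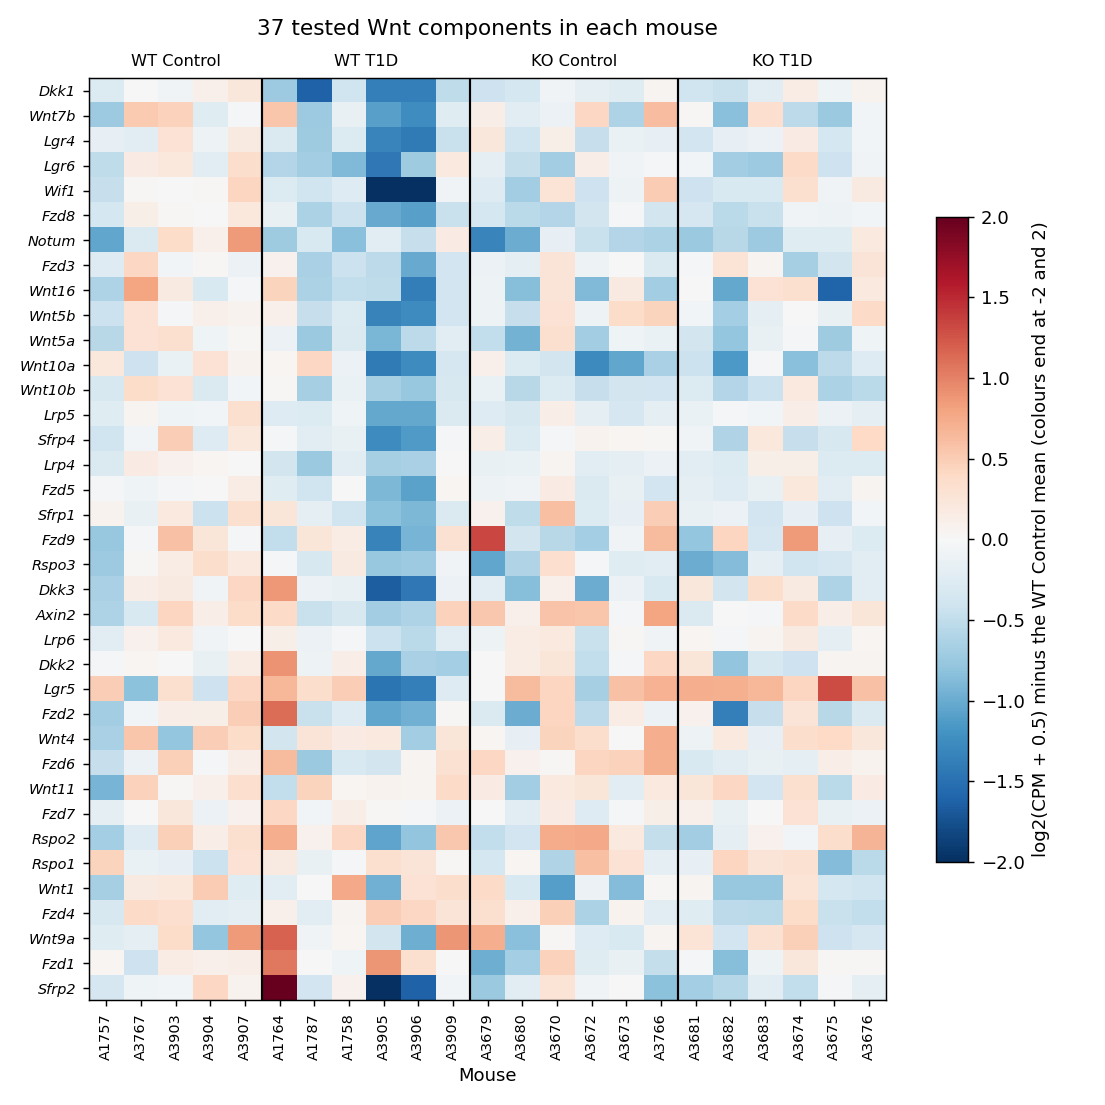
Log2(CPM + 0.5) minus the WT Control mean for the 37 tested members (rows) in each of the 23 mice (columns), with colours ending at -2 and 2. A3905 and A3906 are blue for most members in the upper rows, whereas the groups labelled Sarm1-KO show no such columns.

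**Figure D5:**
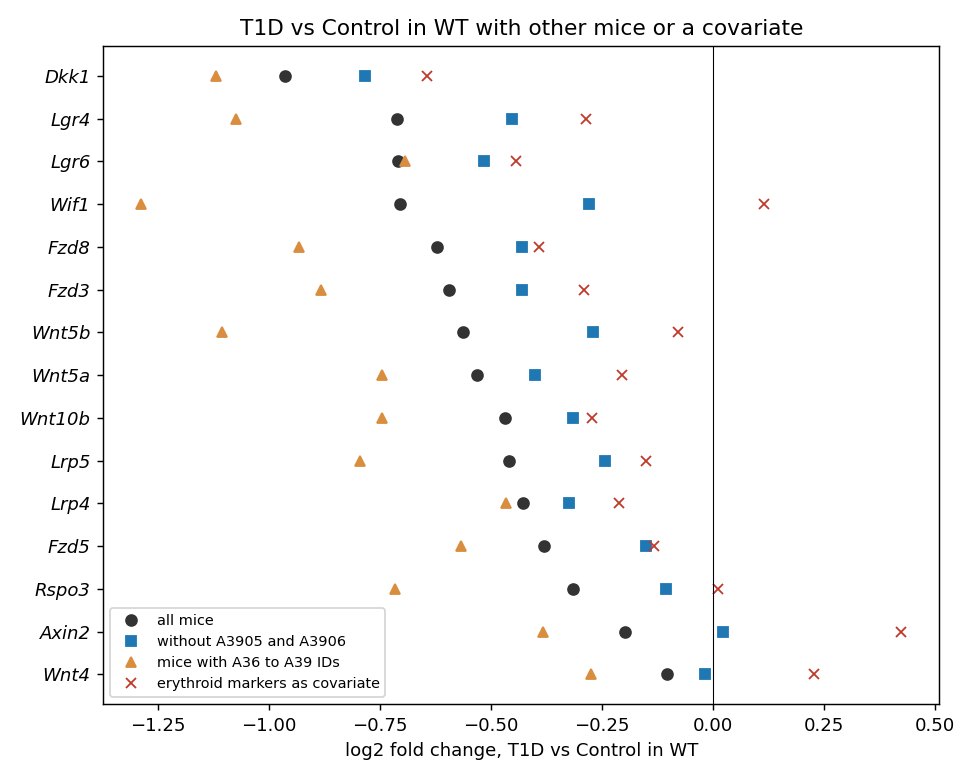
Log2 fold change with T1D in WT of 15 members from all mice, without A3905 and A3906, from the mice with A36 to A39 IDs, and with the erythroid markers as a covariate. Dkk1 runs from -1.12 to -0.64 over the 4 fits, whereas Wif1 runs from -1.29 to 0.11.

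With T1D in mice labelled Sarm1-KO, edgeR called 0 of 37 members, and 0% of all genes passed. DESeq2 and limma on TPM also called 0 members. At an unadjusted p under 0.05, there was 1 lower member, against 1.66% of all genes. This was Fzd6 (log2 fold change -0.53, SE 0.22, adjusted p = 1), at 3.44 to 5.79 CPM in KO Control and 2.64 to 3.74 CPM in KO T1D. The median log2 fold change of the members was -0.02, with 20 of 37 below 0. For the members called in WT, the estimates were 0.05 for Dkk1 (SE 0.18), 0.12 for Fzd8 (SE 0.15), and -0.02 for Lgr4 (SE 0.18).

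The interaction, the change with T1D in mice labelled Sarm1-KO minus that in WT, asked whether the genotypes differed. It passed the threshold for 0 members with edgeR, DESeq2, and limma, and 0% of all genes passed with edgeR. At an unadjusted p under 0.05, 5 of 37 members had a positive interaction and 0 a negative one, against 4.81% of all genes with a positive one. These were Dkk1 at 1.02 (SE 0.26), Fzd8 at 0.75 (SE 0.21), Lgr4 at 0.69 (SE 0.26), Lrp5 at 0.58 (SE 0.20), and Lrp4 at 0.43 (SE 0.16), each with an adjusted p of 0.479. All 5 also had an unadjusted p under 0.05 with T1D in WT, and both tests use the same WT mice. A difference between the genotypes in the response of these genes to T1D was therefore not shown at the adjusted threshold.

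Lrp5 was 106.6 to 147.6 CPM (median 115.5) in KO Control and 119.1 to 147.9 CPM (median 126.4) in KO T1D, a log2 fold change of 0.12 (SE 0.14, adjusted p = 1). Lrp4 was 75.8 to 92.0 CPM (median 80.7) in KO Control and 73.5 to 97.1 CPM (median 75.0) in KO T1D, a log2 fold change of 0.00 (SE 0.11, adjusted p = 1). For both, the mice labelled Sarm1-KO overlapped between Control and T1D. Wif1 likewise overlapped, at 75.9 to 175 CPM (median 108.8) in KO Control and 92.1 to 153.7 CPM (median 108.5) in KO T1D.

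The other members named above also overlapped between KO Control and KO T1D. Fzd5 was 24.7 to 36.3 CPM (median 29.4) in KO Control and 26.9 to 37.3 CPM (median 28.8) in KO T1D. Lgr6 was 3.06 to 5.81 CPM (median 4.77) and 2.99 to 6.98 CPM (median 4.40) in the same order. Wnt5b was 6.11 to 11.9 CPM (median 9.32) and 5.19 to 11.4 CPM (median 7.99). Each of these ranges overlapped that of WT Control. Wnt5a was 2.31 to 6.23 CPM (median 3.86) in KO Control and 2.67 to 4.81 CPM (median 4.02) in KO T1D. Wnt10b was 3.08 to 4.29 CPM (median 3.55) and 2.90 to 5.52 CPM (median 3.29), and Fzd3 was 1.76 to 2.79 CPM (median 2.06) and 1.24 to 2.84 CPM (median 2.29). None of these members was called for T1D in mice labelled Sarm1-KO.

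Without diabetes, 0 members differed between KO Control and WT Control at an adjusted p under 0.05 with edgeR, DESeq2, or limma, and 0.0278% of all genes passed. At an unadjusted p under 0.05, 3 of 37 members were lower in KO Control, against 2.51% of all genes. These were Notum (log2 fold change -0.98, SE 0.35), Wnt10b (-0.43, SE 0.20), and Fzd8 (-0.39, SE 0.15), each with an adjusted p of 0.999. Notum was 0.876, 1.81, 3.16, 2.54, and 4.63 CPM in WT Control and 0.629 to 2.04 CPM (median 1.35) in KO Control. The groups overlapped for Notum, whose counts are low and whose exons overlap antisense genes.

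Under T1D, 0 members differed between KO T1D and WT T1D at an adjusted p under 0.05 with edgeR, and 0.0905% of all genes passed. At an unadjusted p under 0.05, 7 of 37 members were higher and 3 of 37 lower in KO T1D, against 8.44% of all genes higher and 8.65% lower. Dkk1 came closest, with a log2 fold change of 0.81 (SE 0.18, adjusted p = 0.0644), and 5 of 6 KO T1D mice lay above every WT T1D mouse. Lgr4 followed at 0.56 (SE 0.18, adjusted p = 0.168) and Lrp5 at 0.39 (SE 0.14, adjusted p = 0.190). DESeq2 called Dkk1 alone of the members, and edgeR did so without A1758 or without A3909 of WT T1D. This comparison shares its WT T1D mice with the test of T1D in WT and its KO T1D mice with that in the mice labelled Sarm1-KO. KO T1D and WT T1D also had no ID series in common.

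A separate list held 48 other pathway symbols, which included intracellular transducers, transcription factors, secretion factors, and targets. It also held antagonists (such as Sost and Frzb) and receptors (such as Ror1, Ror2, and Ryk) that the naming rule did not take. Of these 48 symbols, 47 were in the table and 44 were tested. In each of the 5 comparisons, 0 were called with edgeR. With T1D in WT, 9 of the 44 were lower and 2 of the 44 higher at an unadjusted p under 0.05, against 11.2% and 11% of all genes. The median log2 fold change of the 44 was -0.18. The lowest p values belonged to Ryk, an atypical Wnt receptor (log2 fold change -0.50, SE 0.15), Bcl9, a β-catenin coactivator (-0.42, SE 0.13), Ctnnb1, which encodes β-catenin (-0.29, SE 0.09), Tle2, a Groucho corepressor (-0.62, SE 0.22), and Dvl3, a Dishevelled transducer (-0.27, SE 0.10), with adjusted p values from 0.0613 to 0.113. For Ryk, the means (± SD) were 53.9 ± 11.4 CPM over 5 WT Control mice and 38.1 ± 7.49 CPM over 6 WT T1D mice, A3905 and A3906 included. They were 49.6 ± 7.44 CPM over the KO Control and 50.5 ± 6.81 CPM over the KO T1D mice.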

How the data were processed

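RNA-Seq values were analysed for 23 mice, with 1 library per mouse. The authors deposited RSEM expected counts, as whole numbers without normalization, together with the sequencing provider's TPM. Per the labels and the study's methods, polyA libraries were sequenced as paired ends (DNBSEQ), reads were cleaned by SOAPnuke, and HISAT and Bowtie2 placed them on GRCm38.p6. Tool versions are not given in the sources used here. Groups came from the library labels, and no mouse numbers were shared between groups. Members and gene lists were chosen with earlier results of these data known.

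The filter of 10 counts in 5 or more mice left 14364 genes for edgeR 4.0.16 in R 4.3.3. TMM normalization and a quasi-likelihood fit of the 4 groups were used, with 5 contrasts and two-sided p values adjusted by Benjamini-Hochberg over all tested genes. SE is the log2 fold change divided by the square root of F, an approximation. CPM uses TMM library sizes. In the 55 pairs of mice of 1 group, counts differed beyond counting error (lowest chi-square per gene 10.9), so each mouse counted as 1 replicate. Depth limits the 18 tested members with a mean under 5 CPM most. The procedure was tested on simulated data.

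Values by mouse are given for members past the threshold in any comparison, for those with an unadjusted p under 0.05 for T1D in WT or the interaction, and for the highest member of each role by TPM. Fzd6, Fzd1, Sfrp2, Notum, Ccdc92b, Xaf1, and Vtn were added after their values were seen. The alternatives were DESeq2 1.42.0, limma 3.58.1 on log2(TPM + 1) and log2(TPM + 0.1), other size factors, other filters, subsets of mice, and an erythroid covariate. Promoters came from RefSeq (GRCm38.p6) and exon overlaps from GENCODE M21. Promoters of some members were not used here.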

Additional observations from a re-analysis of the deposited data

Results flagged for a closer look

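4 members had 1 mouse far from the others of its group, out of 60 groups of the 15 members with values by mouse, where chance gives about 1 in 20. In WT Control, Fzd5 was 35.98 CPM in A3907, and the nearest mouse was at 31.96 CPM. In KO Control, Fzd8 was 15.31 CPM in A3673 with the nearest at 12.18 CPM, Lrp5 was 147.6 CPM in A3670 with the nearest at 118.5 CPM, and Lrp4 was 92.04 CPM in A3670 with the nearest at 81.84 CPM. These mice were all at the high end of a Control group.

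Lrp5 was flagged because every WT T1D mouse lay below the WT Control mean (135.4 CPM) and every KO T1D mouse above the KO Control mean (118.6 CPM). Its estimates with T1D were -0.46 in WT and 0.12 in mice labelled Sarm1-KO. Estimates of opposite sign were not particular to Lrp5, and others were Dkk1 (-0.96 and 0.05) and Fzd8 (-0.62 and 0.12). The Lrp5 interaction was 0.5776 (adjusted p = 0.479 from edgeR), which did not pass the threshold.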

How the results depend on the processing

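The count of members called in WT T1D was 3 with edgeR (8.11% of members, against 2.33% of all genes). It was also 3 with RLE size factors and with totals lacking hemoglobin genes (against 2.21% and 1.77% of all genes). It was 5 with DESeq2 (13.5% of members, where 6.98% of all genes were called). It was 14 and 15 with limma on log2(TPM + 1) and log2(TPM + 0.1) (37.8% and 40.5% of members, against 35.9% and 36% of all genes). A filter of 1 count in 1 mouse gave 1 of 48 members (2.08%, against 0.489% of all genes). A filter of 50 counts in 5 mice gave 4 of 28 (14.3%, against 3.74%). The mice with A36 to A39 IDs gave 12 (32.4%, against 15.5%). Without A3905 and A3906 or with the erythroid covariate, 0 members and 0 genes were called. All calls were lower. On the 2 TPM scales, the median of all genes changed by -0.24 and -0.29 in WT T1D, and 48.4% and 48.7% of genes were lower at an unadjusted p under 0.05. With 1 mouse left out at a time, the count ran from 0 to 6 members, and over all genes from 0 to 1262 genes. The member count was 0 without WT Control mouse A3767, A3903, A3904, or A3907 or WT T1D mouse A3905 or A3906. It was 1 without A1787, A3679, A3680, A3670, A3673, A3681, A3675, or A3676, and 2 without A3672, A3682, A3683, or A3674. It was 4 without A1757 or A3766, 5 without A1764 or A1758, and 6 without A3909 (16.2% of members, against 8.8% of all genes). The log2 fold change then ran from -1.09 to -0.85 for Dkk1 (adjusted p from 0.00898 to 0.0803), from -0.73 to -0.53 for Fzd8 (0.0204 to 0.127), and from -0.81 to -0.59 for Lgr4 (0.0251 to 0.132).

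For KO T1D against WT T1D, where edgeR called 0 members, the count was 1 with DESeq2, 5 and 4 with limma, and 7 in the A36 to A39 mice (out of 239, 1166, 1185, and 1540 genes called in these fits, against 13 with edgeR). In that subset, all KO T1D mice had A36 IDs and all WT T1D mice had A39 IDs. With 1 mouse left out, it ran from 0 to 1 member, and over all genes from 3 to 95 genes. The other 3 comparisons gave 0 members in every alternative run, including each mouse left out.

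Some estimates changed sign. In WT T1D with the erythroid covariate, they were 0.23 for Wnt4, 0.0122 for Rspo3, 0.115 for Wif1, and 0.42 for Axin2, and without A3905 and A3906, 0.0235 for Axin2. The Wnt4 interaction was -0.0038 with DESeq2 and with RLE, -0.0623 without hemoglobin genes, -0.0029 and -0.013 with the filters of 1 and 50 counts, -0.0869 without A3905 and A3906, and -0.26 with the covariate. The interaction was -0.0364 for Wnt5b with the covariate, -0.15 and -0.23 for Rspo3 without A3905 and A3906 and with the covariate, and 0.0378 for Axin2 on log2(TPM + 0.1). With T1D in mice labelled Sarm1-KO, the change was 0.048 for Lgr4 with the covariate, and -1e-04 and -4e-04 for Dkk1 on the TPM scales. With 1 mouse left out, estimates ran from -0.263 to 0.0391 for Wnt4 in WT, from -0.14 to 0.16 and from -0.0614 to 0.223 for the interactions of Wnt4 and Rspo3, and from -0.0188 to 0.111 and from -0.0963 to 0.0601 for Dkk1 and Lgr4 in mice labelled Sarm1-KO. The cause was not tested for any of these. No paired analysis was possible because the groups shared no mouse numbers. Members with few counts are limited by depth.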
